A study of Mus musculus with 6 samples.

Results

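The genes described here encode enzymes and chaperones that act on collagen after its translation. They are the prolyl 4-hydroxylase subunits *P4ha1* and *P4ha2*, the lysyl hydroxylases *Plod1*, *Plod2* and *Plod3*, the chaperones *Crtap* and *Serpinh1*, and the crosslinking enzymes *Lox*, *Loxl2* and *Loxl4*. These 10 genes were chosen by symbol among the 47729 genes of the deposited table, and all 10 had enough reads to be tested. RNA was taken at 14 days after birth from the proximal epiphyses of both tibiae, pooled for each mouse, in 3 Control and 3 LS1 animals of generation F13 and of different families. Control is a random-bred ICR line, which the study's methods call CD-1. LS1 is the Longshanks 1 line, bred from the same background for a long tibia relative to body mass. It is 1 of a pair of selected lines, so line and selection cannot be told apart here. No mouse was treated, and the sampled piece held cartilage, bone and marrow together.

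Collagen chains enter the endoplasmic reticulum as they are made, and many of their prolines and lysines are hydroxylated there before the triple helix closes. Prolyl 4-hydroxylation makes the helix stable at body temperature, and lysyl hydroxylation provides sites for sugars and for crosslinks. The chaperone encoded by *Serpinh1* (HSP47) binds the folded helix, and the *Crtap* product is part of the complex that 3-hydroxylates prolines. After secretion, lysyl oxidases convert lysines to aldehydes, from which the crosslinks of cartilage and bone matrix form. Loss of *CRTAP* or *SERPINH1* causes osteogenesis imperfecta in humans, and loss of *PLOD2* causes Bruck syndrome, in which bones are also brittle. Hydroxylases of this kind need iron, oxygen and vitamin C, and lysyl oxidases need copper.

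In the proximal tibia, *P4ha1*, *P4ha2*, *Lox*, *Loxl2* and *Loxl4* were higher in every LS1 library than in every Control library. Such a separation, in that direction, was found in 10.3% of the 19308 genes tested and in 5 of the 10 genes here, while the opposite separation was found in 8.94% of the genes tested and in 0 of the 10. The mean of these 5 genes was 26.2% (*P4ha2*) to 47.4% (*Loxl4*) above that of Control. The levels of *Plod1*, *Plod2*, *Plod3*, *Crtap* and *Serpinh1* overlapped between the lines. Of the 10 genes, 0 passed the test across all genes (limma with Benjamini-Hochberg adjustment, threshold 0.05), which called 0.0725% of the genes tested. On the recovered reads edgeR called 0 of the 10 and DESeq2 called 1, *Loxl4*. An unadjusted p under 0.05 with higher expression in LS1 was reached by 4 of the 10, against 7.08% of all genes tested. The median log2 fold change of the 10 genes was 0.31 (range -0.02 to 0.56), beside a median of 0.0054 over all genes tested. The members were listed with results of these libraries known, so these counts describe the genes and are not independent evidence of a direction. The summed normalized count of 10 chondrocyte markers was also higher in LS1, from 2952164 to 3431263 against 2189355 to 2538620 in Control. The largest part of that sum was *Col2a1*, with a mean of 1481072 in Control and 1760553 in LS1, and *Col2a1* alone overlapped between the lines. The part of these markers in the differences was not tested. In bulk RNA, more cells of a type and more RNA per cell cannot be told apart.

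The promoters of *P4ha1*, *P4ha2*, *Loxl4* and *Serpinh1* are shown as examples, the first 3 from genes that separated the lines and the last from the most abundant of the 10, which overlapped between them. Promoters of 7 of the 10 genes, from RefSeq (GRCm38.p6), were examined. Those of *Plod2* and *Loxl2* were not in the promoter set used, and that of *Lox* was not examined. The 250 bases before the start of the transcript are given, 5′ to 3′ on the strand of the gene. Capitals mark matches, on either strand, to the core letters of the hypoxia response element, ACGTG or GCGTG. The palindrome CACGTG would match the former on both strands. *P4ha1* and other genes of the prolyl 4-hydroxylase family are well-known targets of the hypoxia-inducible factor.
P4ha1 promoter (chr10:59323046-59323295, plus strand): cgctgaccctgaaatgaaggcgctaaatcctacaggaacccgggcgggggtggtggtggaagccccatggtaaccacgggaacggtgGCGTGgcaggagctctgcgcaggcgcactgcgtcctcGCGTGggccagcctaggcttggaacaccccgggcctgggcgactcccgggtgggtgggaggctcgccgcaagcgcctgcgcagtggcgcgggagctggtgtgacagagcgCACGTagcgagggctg
P4ha2 promoter (chr11:54100674-54100923, plus strand): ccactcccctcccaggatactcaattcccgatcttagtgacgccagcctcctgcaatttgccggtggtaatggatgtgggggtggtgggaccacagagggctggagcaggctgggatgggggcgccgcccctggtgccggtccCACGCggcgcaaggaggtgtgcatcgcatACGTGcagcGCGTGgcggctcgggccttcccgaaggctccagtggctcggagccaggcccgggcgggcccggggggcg
Loxl4 promoter (chr19:42612807-42613056, minus strand): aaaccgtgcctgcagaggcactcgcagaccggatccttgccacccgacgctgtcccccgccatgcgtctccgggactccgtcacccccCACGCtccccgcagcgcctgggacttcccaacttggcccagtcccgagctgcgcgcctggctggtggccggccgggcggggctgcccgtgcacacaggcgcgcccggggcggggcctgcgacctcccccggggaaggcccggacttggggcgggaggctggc
Serpinh1 promoter (chr7:99353240-99353489, minus strand): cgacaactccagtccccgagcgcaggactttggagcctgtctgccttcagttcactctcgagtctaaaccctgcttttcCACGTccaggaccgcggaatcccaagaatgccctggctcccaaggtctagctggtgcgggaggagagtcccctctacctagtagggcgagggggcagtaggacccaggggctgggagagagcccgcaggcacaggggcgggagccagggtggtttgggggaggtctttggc
The windows of *P4ha1* and *P4ha2* each held 1 match to ACGTG and 2 matches to GCGTG. That of *Loxl4* held 1 match to GCGTG and none to ACGTG, and that of *Serpinh1* held 1 match to ACGTG and none to GCGTG. A match to ACGTG occurred in 16.6%, and to GCGTG in 28.2%, of the 32851 promoter windows of the table. Neither the heat shock element (GAANNTTC, in 6.69% of the windows) nor the ER stress element (in 0.113%) had a match in these 4 windows. The other windows examined, all of genes that overlapped between the lines, also held matches. That of *Plod3* held 1 match to ACGTG and 3 to GCGTG, that of *Crtap* 3 to GCGTG and that of *Plod1* 1 to GCGTG. Matches were thus found in all 7 windows, whether or not the gene separated the lines. Over the 32851 windows of the table, 38.6% had a match to either core. Both cores contain the letters CG, and the 7 windows held from 53.6% (*Crtap*) to 76.0% (*Loxl4*) G or C. The windows of the table were not matched for this content, so the shares cannot show an excess of matches. Each match is only a run of letters, and binding was not measured. The *P4ha2* window lies inside the gene as GENCODE M21 draws it, but outside its exons. Of the 250 bases of a window, 7 in that of *Loxl4* and 208 in that of *Plod3* lie in exons of that annotation.

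**Figure D1:**
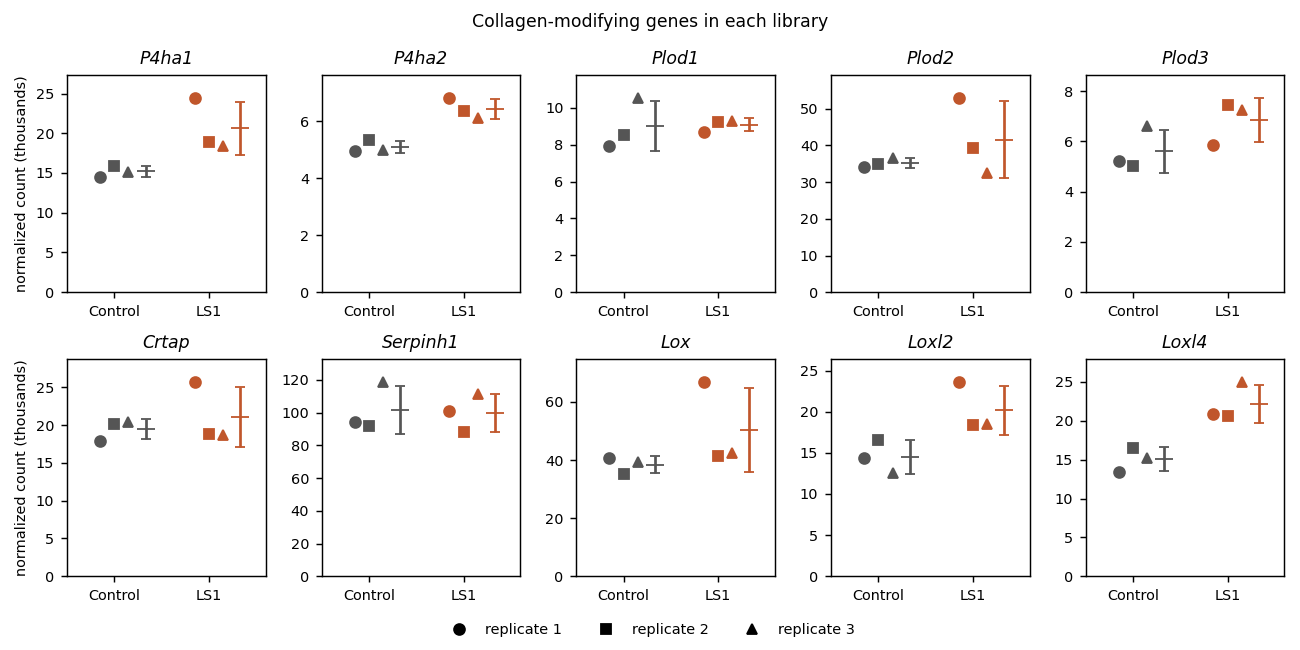
Normalized count (in units of 1000, from 0) of each of the 10 genes in the 3 Control libraries (grey) and the 3 LS1 libraries (orange). The shape of a point is the replicate, and the bar beside the points is the mean with its SD (n = 3). In *P4ha1*, *P4ha2*, *Lox*, *Loxl2* and *Loxl4* all orange points are above all grey points, and LS1 replicate 1 is far above the other LS1 libraries in *Lox* and *Plod2*.

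The prolyl 4-hydroxylase subunits carry the catalytic site of the enzyme that makes 4-hydroxyproline. *P4ha1* (ENSMUSG00000019916, chromosome 10 of GRCm38 from 59323296 to 59373304) had normalized counts, that is reads divided by the size factor of the library, of 14526, 15924 and 15135 in Control and 24454, 18946 and 18446 in LS1. The lowest LS1 value exceeded the highest Control value, and LS1 replicate 1 was the highest. The means were 15195 ± 701 (SD, n = 3) and 20615 ± 3334 (SD, n = 3), a log2 fold change of 0.43 (SE 0.14, limma adjusted p = 0.272). *P4ha2* (chromosome 11 from 54100095 to 54131665) had normalized counts of 4937, 5345 and 4982 in Control and 6814, 6348 and 6100 in LS1. Here the LS1 libraries lay close together, and the lowest was above the highest Control library. Its log2 fold change was 0.34 (SE 0.12, limma adjusted p = 0.302).

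The levels of all 3 lysyl hydroxylases overlapped between the lines. *Plod1* (chromosome 4 from 147909753 to 147936767), whose product hydroxylates lysines in the helix, had normalized counts of 7917, 8536 and 10534 in Control and 8669, 9248 and 9295 in LS1. The LS1 libraries fell inside the range of Control, and the log2 fold change was 0.022 (95% interval -0.28 to 0.33 from limma). It was -0.065 without Control replicate 1. *Plod2* (chromosome 9 from 92542223 to 92608428), whose product hydroxylates lysines in the ends of the chains that form crosslinks, had normalized counts of 34115, 34806 and 36623 in Control. In LS1 they were 52965, 39340 and 32384. LS1 replicate 1 was the highest of all 6 libraries and LS1 replicate 3 the lowest. The log2 fold change of *Plod2* was 0.21 (95% interval -0.17 to 0.59 from limma, adjusted p = 0.632), and 0.021 without LS1 replicate 1. *Plod3* (chromosome 5 from 136987019 to 136996648), whose product can also add sugars to hydroxylysine, had normalized counts of 5228, 5008 and 6592 in Control and 5855, 7454 and 7259 in LS1. LS1 replicate 1 was inside the range of Control and the other LS1 libraries were above it. Its log2 fold change was 0.29 (95% interval -0.04 to 0.63, adjusted p = 0.449 from limma).

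The levels of both chaperones overlapped between the lines as well. *Serpinh1* (chromosome 7 from 99345376 to 99353239) had normalized counts of 94175, 92095 and 118726 in Control and 100710, 87850 and 111182 in LS1. Control replicate 3 was the highest library and LS1 replicate 2 the lowest. The means were 101665 ± 14811 (SD, n = 3) and 99914 ± 11686 (SD, n = 3), a log2 fold change of -0.022 (95% interval -0.35 to 0.31 from limma). *Crtap* (chromosome 9 from 114375134 to 114390675) had normalized counts of 17935, 20130 and 20404 in Control and 25707, 18755 and 18726 in LS1. Only LS1 replicate 1 was above the Control range. The log2 fold change of *Crtap* was 0.098 (95% interval -0.23 to 0.43 from limma), and -0.054 without LS1 replicate 1. For these genes, and for *Plod1*, *Plod2* and *Plod3*, the intervals allow a difference in either direction.

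All 3 crosslinking enzymes were higher in every LS1 library. *Lox*, the main lysyl oxidase of fibrillar collagen and elastin, had normalized counts of 40613, 35197 and 39393 in Control and 66906, 41441 and 42325 in LS1. The lines were separated by a small margin, and LS1 replicate 1 stood far above the rest. The log2 fold change of *Lox* was 0.35 (SE 0.18, limma adjusted p = 0.445), and 0.13 without LS1 replicate 1. *Loxl2* (chromosome 14 from 69609068 to 69695834), known to crosslink collagen IV and to be made by growth plate chondrocytes, had normalized counts of 14334, 16614 and 12567 in Control. In LS1 they were 23624, 18445 and 18458. The lowest LS1 library was above the highest Control library, and the log2 fold change was 0.48 (SE 0.15, limma adjusted p = 0.264).

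*Loxl4* had the largest log2 fold change of the 10 genes in the limma fit to all 6 libraries. *Loxl4* (ENSMUSG00000025185, chromosome 19 from 42593982 to 42612813), a lysyl oxidase with scavenger receptor domains like *Loxl2*, had normalized counts of 13412, 16514 and 15202 in Control and 20912, 20589 and 24999 in LS1. LS1 replicate 3 was the highest, unlike in *P4ha1*, *P4ha2*, *Lox* and *Loxl2*, where LS1 replicate 1 was. The means of *Loxl4* were 15043 ± 1557 (SD, n = 3) and 22167 ± 2458 (SD, n = 3), a log2 fold change of 0.56 (SE 0.14, limma adjusted p = 0.194). DESeq2 on the recovered reads, which called 2.58% of the 17796 genes with an adjusted p, gave *Loxl4* a log2 fold change of 0.55 and an adjusted p of 0.0294, and it called no other of the 10 genes. Without each library in turn, the log2 fold change of *Loxl4* in limma stayed between 0.47 and 0.63. The range of its adjusted p over all 17 alternatives was 0.0294 to 0.418.

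**Figure D2:**
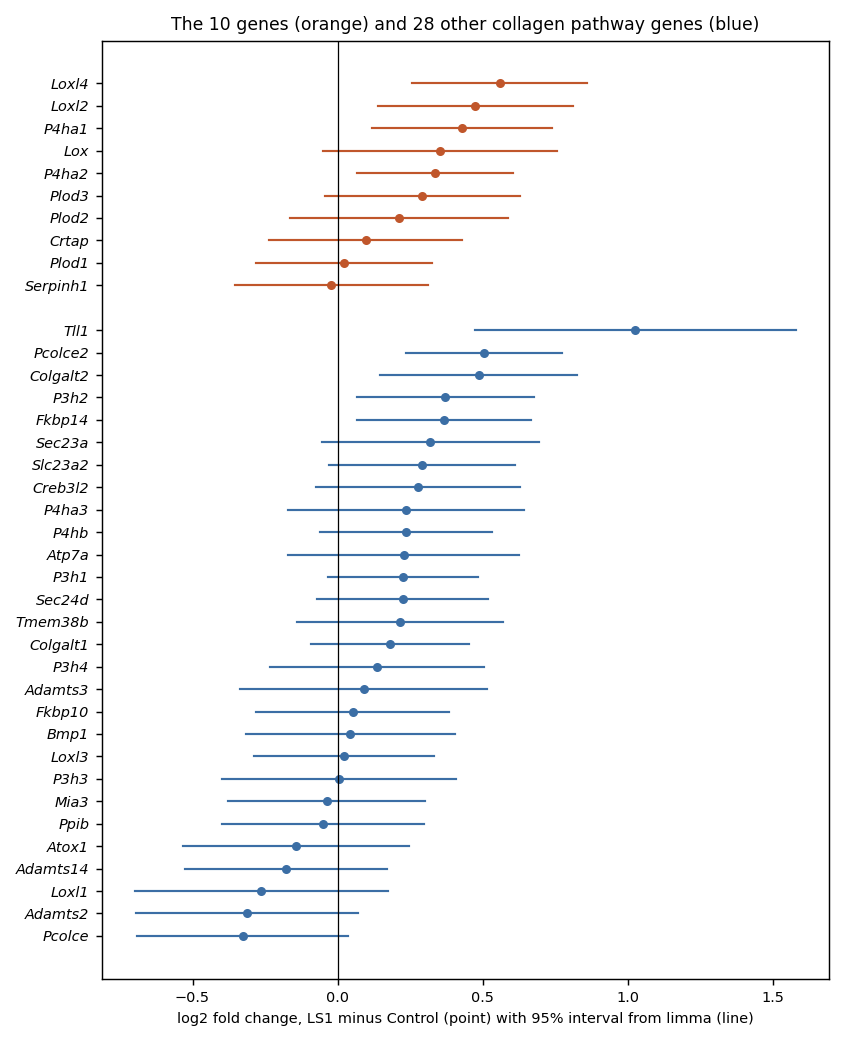
Log2 fold change of LS1 minus Control for the 10 genes (orange) and the 28 other collagen pathway genes (blue), each point with its 95% interval from limma. The intervals of *Loxl4*, *Loxl2*, *P4ha1* and *P4ha2* are above 0. So are those of *Tll1*, *Pcolce2*, *Colgalt2*, *P3h2* and *Fkbp14* among the 28 other genes. Of the 38 genes, 0 passed after adjustment over all genes tested.

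Divided by the length of all annotated exons of a gene, the levels of the 10 genes spanned a wide range. *Serpinh1* was the highest, with 41615 ± 6063 normalized counts per kb (SD, n = 3) in Control, and *P4ha2* the lowest with 815 ± 35.8 (SD, n = 3). In Control the order was *Serpinh1*, *Crtap*, *Lox*, *Plod2*, *P4ha1*, *Loxl4*, *Loxl2*, *Plod1*, *Plod3* and *P4ha2*. The ranges of neighbours overlapped in Control for *P4ha1* and *Loxl4* and for *Plod1* and *Plod3*, so their order is not resolved. In LS1 these pairs stood in the opposite order and again overlapped, as did *Crtap* with *Lox* and *Lox* with *Plod2*. The exon length of all isoforms together understates the level of a gene whose long exons are seldom used.

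**Figure D3:**
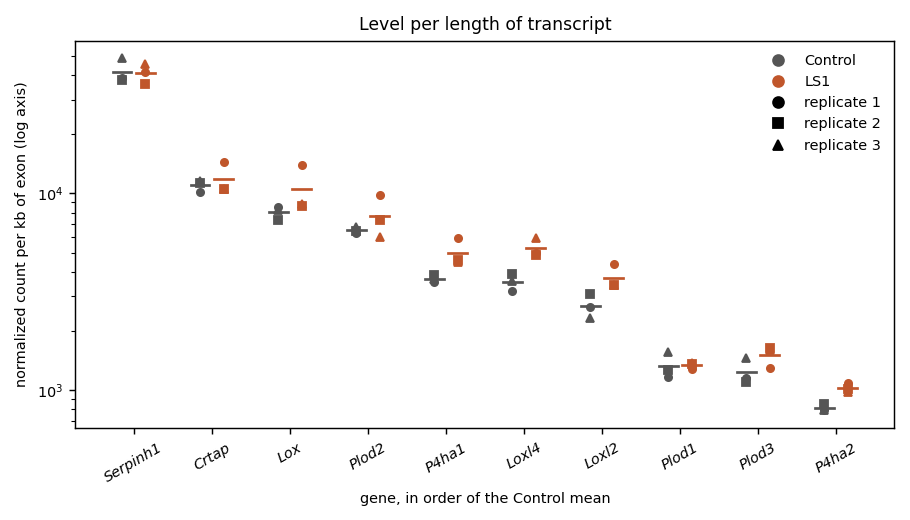
Normalized count per kb of exon (log axis) in each library, with genes in the order of the Control mean, which is drawn as a line beside that of LS1. Points are Control (grey) and LS1 (orange) libraries, with shapes for replicates. *Serpinh1* is far above the other genes in all 6 libraries, and *P4ha2* is the lowest by the mean of both lines.

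The share of each family taken by 1 of its members, on this scale of counts per kb, overlapped between the lines. *P4ha2* made up 18.3%, 18.1% and 17.8% of *P4ha1* and *P4ha2* together in Control and 15.5%, 18.1% and 17.9% in LS1 (exact permutation test, two-sided p = 0.4). *Plod2* made up 71.8% ± 2.24 (SD, n = 3) of the lysyl hydroxylases in Control and 72.3% ± 6.33 (SD, n = 3) in LS1 (exact permutation test, p = 1). In LS1 this share ran from 79.2% in replicate 1 to 66.8% in replicate 3, a spread wider than that of Control. *Lox* made up 49.5% ± 4.06 (SD, n = 3) of *Lox* and *Loxl1* to *Loxl4* in Control and 48.6% ± 6.52 (SD, n = 3) in LS1 (exact permutation test, p = 0.9). With 3 mice against 3, the smallest two-sided p of this test is 0.1. The direction of the *Plod2* difference turned without LS1 replicate 1 or Control replicate 3, and that of the *Lox* difference without Control replicate 1, LS1 replicate 2 or LS1 replicate 3.

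The other genes of the pathway gave a mixed picture. Of 28 such genes, all tested, 0 passed the test of limma and 5 had an unadjusted p under 0.05, each with higher expression in LS1. Such a p with higher expression in LS1 was reached by 7.08% of all genes tested. Their median log2 fold change was 0.20, and in 10 of the 28 the LS1 range lay wholly above that of Control, with 0 wholly below. Over all genes tested, the shares above and below were 10.3% and 8.94%. Among genes for hydroxylation and glycosylation, *Colgalt2*, which adds galactose to hydroxylysine, had a log2 fold change of 0.49 (adjusted p = 0.261 from limma), and *P3h2*, a prolyl 3-hydroxylase, one of 0.37. *P4hb*, the partner subunit of *P4ha1* and *P4ha2*, and *P4ha3*, another catalytic subunit, each had a log2 fold change of 0.24. In both, the LS1 range lay above that of Control.

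Among the folding factors, *Fkbp14* had a log2 fold change of 0.37, *Tmem38b* of 0.21, *Fkbp10* of 0.053 and *Ppib*, the cyclophilin that works with *Crtap* and *P3h1*, of -0.050. Among the export genes, *Sec23a* had a log2 fold change of 0.32, *Creb3l2* of 0.28, *Sec24d* of 0.22 and *Mia3* of -0.038. The propeptide group, whose products trim or help to trim procollagen, held the largest differences in both directions. *Tll1* had normalized counts of 155, 116 and 104 in Control and 270, 231 and 258 in LS1, a log2 fold change of 1.03 (adjusted p = 0.194 from limma). *Pcolce2* had a log2 fold change of 0.50 (adjusted p = 0.187 from limma). *Pcolce*, a related enhancer of propeptide removal, had one of -0.33 and *Adamts2* one of -0.31, and in both the lines overlapped. *Slc23a2*, a vitamin C transporter, had a log2 fold change of 0.29, *Loxl1* of -0.26, the copper pump *Atp7a* of 0.23 and the copper chaperone *Atox1* of -0.14.

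The collagens on which these enzymes act were set beside them. Of 13 collagen genes, 0 passed the test of limma. The LS1 range lay wholly above that of Control in 5 and wholly below it in 1. Over all genes tested, the shares above and below were 10.3% and 8.94%. The type IX and X collagens, which are made by chondrocytes, had the largest differences, with log2 fold changes of 0.72 for *Col9a1*, 0.61 for *Col10a1*, 0.58 for *Col9a2* and 0.40 for *Col9a3*. With DESeq2, the study listed *Col10a1* as higher in LS1, but its qPCR of growth plates from other mice found no significant difference. *Col1a1*, the main collagen of bone, named after its values were seen, had a lower count in every LS1 library than in any Control library, with a log2 fold change of -0.19 (limma adjusted p = 0.616). Collagen I took 57.0% ± 2.86 (SD, n = 3) of the collagen counts per kb in Control and 47.2% ± 3.76 (SD, n = 3) in LS1, without overlap (exact permutation test, p = 0.1, a measure chosen after the values were seen). The 10 modifying genes together amounted to 7.78%, 7.38% and 7.999% of the collagen counts per kb in Control and 8.89%, 7.33% and 7.87% in LS1 (exact permutation test, p = 0.7). The difference of the means, 0.31 percentage points, was -0.12 without LS1 replicate 1. With counts not divided by length, the amounts were 3.10%, 2.95% and 3.09% in Control and 3.89%, 3.24% and 3.27% in LS1, which did not overlap (exact permutation test, p = 0.1, the smallest possible), so whether the lines separate depends on the scale.

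**Figure D4:**
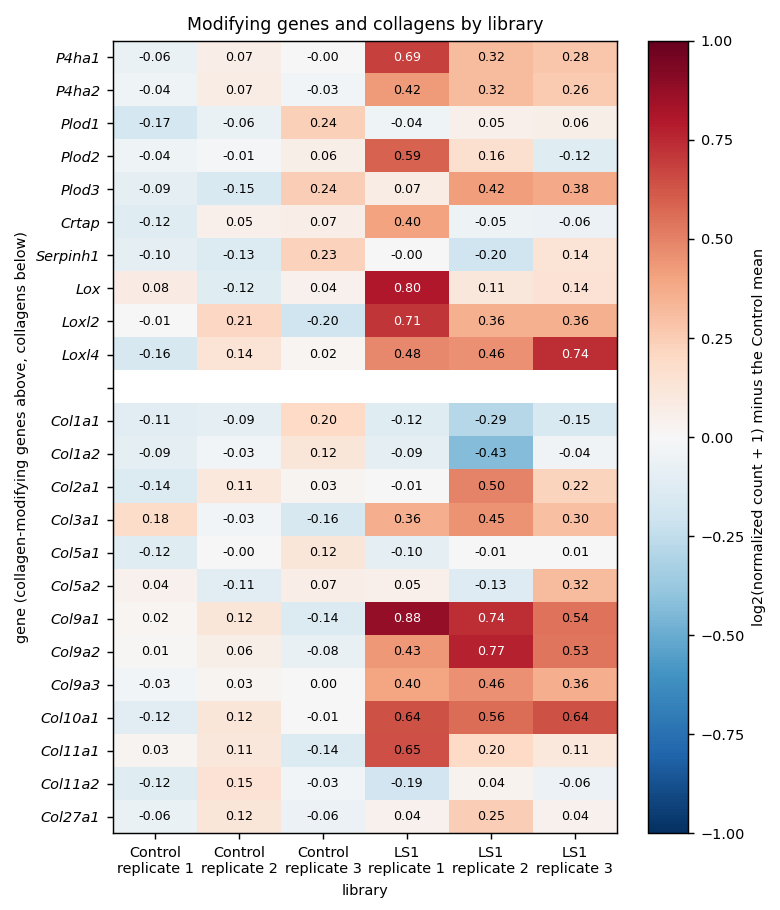
Log2(normalized count + 1) of each library minus the Control mean, for the 10 modifying genes (above) and 13 collagens (below). Red is above and blue below the Control mean. LS1 replicate 1 reaches 0.80 in *Lox* and 0.59 in *Plod2*, and Control replicate 3 is the highest Control library in *Plod1*, *Plod3*, *Serpinh1* and *Col1a1*.

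Single libraries moved groups of these genes together. LS1 replicate 1 was the highest LS1 library in 6 of the 10 genes, and its median difference from the Control mean was 0.45 on the log2 scale, against 0.24 in LS1 replicate 2 and 0.20 in LS1 replicate 3. Control replicate 3 was 0.24 above the Control mean in *Plod1*, 0.24 in *Plod3*, 0.23 in *Serpinh1* and 0.20 in *Col1a1* on that scale, and -0.20 in *Loxl2*. Leaving out a library can add separated genes but never remove one. Without Control replicate 3, the LS1 libraries were above Control in *Plod1* and *Plod3* too, as they were in *Plod3* without LS1 replicate 1 and in *Plod2* without LS1 replicate 3. LS1 replicate 3 lay nearest to Control in the leading axis of a principal component analysis of the genes tested, and without it limma called 324 genes in place of 14, yet 0 of the 10 genes here.

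Defining markers of cartilage, bone and marrow cells were all detected. Of the 10 chondrocyte markers, all of which had a log2 fold change above 0, limma called 0. In 6 of them every LS1 library was above every Control library, against 10.3% of all genes tested. The sum of 9 osteoblast markers ran from 2704282 to 3318309 normalized counts in Control and from 2487964 to 2947908 in LS1. Most of it was *Col1a1*, with a mean of 2181392 in Control and 1908932 in LS1. Of the 9 markers, 5 had a log2 fold change above 0 and 4 below. In 2 of them LS1 lay wholly below Control, against 8.94% of all genes tested. The sum of 8 fibroblast and tendon markers ran from 256300 to 282876 in Control and from 310919 to 345748 in LS1, without overlap. The largest part of it was *Col3a1*, with a mean of 138331 in Control and 178022 in LS1. Of these 8, 6 had a log2 fold change above 0 and 2 below. LS1 lay wholly above Control in 2 (*Col3a1* and *Tnmd*), against 10.3% of all genes tested. The sum of 7 erythroid markers ran between 1433813 and 1793891 for Control libraries and between 791391 and 942573 for LS1 libraries, and 1 of them, the globin gene *Hbb-bs*, was called lower. The median log2 fold change was -0.48 for 7 B cell markers, 0.23 for 8 neutrophil markers, 0.12 for 6 macrophage and osteoclast markers, 0.093 for 5 endothelial markers and -0.72 for 6 muscle markers, with 0 called in each. The chondrocyte, osteoblast and fibroblast lists share genes with the collagen list. The part of these markers in the differences of the 10 genes was not tested. Totals ran from 68803249 to 76581954 reads per library in Control and from 82227711 to 88745366 in LS1, so that depth did not overlap between the lines. The fewest reads of any of the 10 genes in a library were 4504, a counting error of 1.49%, so the spread between mice was the larger error. *Plod2*, *Crtap*, *Lox* and *Loxl2* overlap noncoding genes on the opposite strand and *Plod3* overlaps *Znhit1*. Whether counting used strand is not given in the sources used here.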

How the data were processed

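Poly-adenylated RNA of 6 libraries was sequenced as read pairs. Per the labels and the study's methods, the authors aligned reads to GRCm38 (Ensembl release 84) using HISAT2 2.0.2, and featureCounts 1.4.6 gave a count per gene. The deposited values are a signal, the count divided by a size factor of the library. Reads were recovered by dividing by the value of 1 read, and 100% of values were whole within 0.01. In Control replicate 1 that value was close to 1, at 1.009, but the deposited values there were not rounded to whole numbers (14526.34 for *P4ha1*). A count test was also repeated without that library.

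Expression was compared on log2(value + 1) with limma 3.58.1 in R 4.3.3 (trend and robust moderation), for genes with a mean of at least 20 reads. Alternatives used edgeR 4.0.16, DESeq2 1.42.0, voom, TMM, other filters and pseudocounts, a replicate block and each library left out. Symbols, positions and exon lengths came from GENCODE M21 (GRCm38), which named 99.1% of identifiers. Every member is named. Other genes are those called and up to 4 per list with the largest change. Members and lists were chosen with earlier results of these data known. In tests on simulated data, estimates were unbiased, but the share of false calls exceeded the threshold of 0.05 where dispersions varied by gene, so a limma call is less certain than its adjusted p states. The replicates are mice of different families, numbered by the letters A to C of their sample names. Family shares were compared by a two-sided exact permutation test over libraries. Promoters came from RefSeq (GRCm38.p6).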

Additional observations from a re-analysis of the deposited data

How the results depend on the processing

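With 17 alternatives for each of the 10 genes, 162 of 170 log2 fold changes kept their direction and their side of the threshold. The exceptions were *Loxl4*, called by DESeq2, and 7 near-zero values that turned sign. *Plod1* was -0.00096 with edgeR and -0.092 with edgeR without Control replicate 1. Over the libraries left out in limma, *Plod1* ran from -0.065 to 0.14 (below 0 without Control replicate 1 or 2), *Crtap* from -0.054 to 0.17 (below 0 without LS1 replicate 1) and *Serpinh1* from -0.10 to 0.095 (above 0 without Control replicate 3 or LS1 replicate 2). The number of the 10 genes called was 1 with DESeq2 and 0 otherwise. Of the 28 other pathway genes, DESeq2 called 2 (*Tll1* and *Pcolce2*) and limma 1 (*Colgalt2*) without LS1 replicate 3. Leaving out libraries gave 0 to 1 there.

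Over all genes, limma called 14, edgeR 7, edgeR without Control replicate 1 called 5, DESeq2 459, voom 8, limma without a filter 45, with a filter at 100 reads 9, and without trend and robust moderation 3. Leaving out each library gave 5 (Control replicate 2) to 324 (LS1 replicate 3), with 9 without Control replicate 1 and 46 without LS1 replicate 1. The cause was not tested. A replicate block, from the letters A to C that the sample names share, called 12 genes and 0 of the 10. Nothing says that a letter marks a shared family or day, and the deviations of same-letter libraries correlated at 0.0536, 0.0211 and 0.224, so the block was not used.

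The same 5 genes had LS1 above Control with TMM or division by total reads (both chosen after seeing the data). The differences in shares, LS1 minus Control in percentage points, depended on single libraries. With each library left out, that of *P4ha2* ran from -1.37 to -0.0877 (the latter without LS1 replicate 1). That of *Plod2* ran from -3.04 (without LS1 replicate 1) to 3.15, against 0.43 with all libraries, and was also below 0, at -0.86, without Control replicate 3. That of *Lox* ran from -4.58 to 1.5996, against -0.90 with all, and was above 0 without LS1 replicate 3, Control replicate 1 (0.83) or LS1 replicate 2 (0.29). That of the 10 genes beside the collagens ran from -0.12 (without LS1 replicate 1) to 0.66. Counts not divided by length kept the direction of all 4 differences. With 3 mice per line, only differences well beyond the spread between mice can pass.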

Other observations

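Genes that hypoxia-inducible factor is known to raise were examined because several hydroxylases and lysyl oxidases belong to that group. Of 17 such genes outside the 10, 0 passed the test of limma, and 14 had a log2 fold change above 0, with a median of 0.22. Over all genes, 9783 of the 19308 tested were above 0. The 3 below 0 were *Eno1* with -0.12, *Ankrd37* with -0.093 and *Kdm3a* with -0.031. *Car9* had the largest of the 17, 0.76 (limma adjusted p = 0.334), followed by *Egln3* with 0.65, *Slc2a1*, a glucose transporter, with 0.57 and *Bnip3* with 0.51. *Bnip3* had normalized counts of 6516, 8162 and 7356 in Control and 14156, 9882 and 8091 in LS1, with LS1 replicate 1 the highest, as in *P4ha1* and *Lox*, and LS1 replicate 3 inside the range of Control. *Slc2a1* had 1826, 2222 and 1919 in Control and 2642, 3500 and 2760 in LS1, so that LS1 replicate 2 was the highest there. Oxygen was not measured.

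The genes whose pattern over the 6 libraries was most like the mean of the 10 genes were *Lama4*, a laminin chain, with a Pearson r of 0.997, and *Fkbp9*, a prolyl isomerase of the endoplasmic reticulum, with 0.990. *Spast*, *Lta4h* and *Sat1* followed, with r of 0.986, 0.983 and 0.982. The search covered 9551 genes outside the lists, with a mean of at least 1000 normalized counts. With only 6 libraries that share the contrast of the lines, 2.01% of these genes reached an r of at least 0.9. *Fkbp9* had normalized counts of 82840, 88795 and 88644 in Control and 118458, 101003 and 104704 in LS1, which did not overlap.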
